A study of Mus musculus with 7 samples.

Results

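NF-kB signalling was examined in pancreatic islets through 40 genes: its subunits, inhibitors, upstream receptors, adaptors and kinases, and cytokine and other genes known as its targets. They are 40 of the 51912 genes in the count table and were chosen by symbol, with earlier results from these 7 libraries known, among them how the libraries differ by the name they carry. Of the 40, 39 passed the filter on low counts and were tested among 16504 genes. The exception was Traf1, which encodes an adaptor of tumour necrosis factor receptors and had 0.0520 to 1.28 CPM per library (CPM being counts scaled to a common library total).

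NF-kB is a family of dimeric transcription factors held in the cytoplasm by inhibitor proteins of the I-kappa-B family. Signals from cytokine and Toll-like receptors activate a kinase complex that marks these inhibitors for destruction. The freed dimers enter the nucleus and switch on inflammatory genes, together with the genes of their own inhibitors, which is how the response ends. Beta cells carry the interleukin-1 receptor, and inflammatory cytokines are a classical way to activate the pathway in islets.

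The islets came from db/db mice, obese and diabetic animals whose leptin receptor does not signal. Each mouse had been given an adeno-associated virus (AAV) 4 weeks earlier, encoding either green fluorescent protein (AAV-GFP, 4 mice) or adipsin, a complement protease made by fat cells (AAV-Adipsin, 3 mice). Isolated islets then spent 12 hours in culture, and each mouse gave 1 library. The db/db genotype, the virus and the culture step are common to both groups, with no lean, uninjected or uncultured islets to compare; neither the age of the mice nor the promoter in the vectors is given in the sources used here. The question posed is what raised adipsin does to islet transcripts while blood glucose is still similar.

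Library totals ran from 29601707 to 43997400 counts, and 12 endocrine markers (insulin, glucagon and others) summed to 179400 to 223900 CPM, so the labelled tissue was present. Replicate 1 of each group is described in the labels by a treatment name, "GFP" or "Adipsin", and the other 5 libraries by a db number. The labels do not say what this difference in naming stands for. The 2 treatment-named libraries stood apart from the 5 db-numbered ones for most members, so results are given by treatment and by naming. They also had the lowest shares of mitochondrially encoded counts, 1.23% in AAV-GFP and 1.13% in AAV-Adipsin against 1.45% to 2.68%. They had the most genes with a count, 24460 and 23787 against 21840 to 23536, a number not adjusted for depth. AAV-GFP replicate 1 was the deepest library, and AAV-GFP replicate 4, with the fewest genes, the shallowest. AAV-Adipsin replicate 1, at 38339275 counts, was less deep than AAV-GFP replicate 3, at 39328690.

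No member passed the test for a difference between AAV-Adipsin and AAV-GFP, from the subunits and inhibitors to targets such as Icam1 and Tnf. With edgeR's quasi-likelihood test, 0 of 39 members passed an adjusted p of 0.05. Among all genes 0.00606% were called higher (1 gene, Cfd, the transcript the adipsin vector encodes) and 0% lower. At an unadjusted p under 0.05 the count was again 0 of 39 members, against 1.16% of all genes. DESeq2 and limma-voom called 0 members as well. The 2 treatment groups overlapped in each of the 39 members, whereas over all genes AAV-Adipsin lay wholly above AAV-GFP for 1.16% and wholly below for 1.58%. The median log2 fold change (AAV-Adipsin over AAV-GFP) was -0.01 over the members and -0.01 over all genes, and 18 of 39 members lay above 0, a share of 46.2% that was also that of all genes. In whole islets, fewer cells of a type and less RNA per cell cannot be told apart in any of these values.

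Between libraries the members varied far more than between treatments. Of the 39 members tested, 38 had a log2 difference below 0 for the treatment-named libraries (treatment-named minus db-numbered, from a fit that also holds treatment). The median was -1.0, against -0.01 over all genes. In 32 members both treatment-named libraries lay below all 5 others, and in 0 members above them; over all genes the shares were 18.9% below and 18.7% above. By edgeR 23 of 39 members passed as lower and 0 as higher, where 5.57% of all genes passed as lower and 4.22% as higher. The genes were chosen with this difference in view, so nothing is read from the contrast between the members and all genes. Without AAV-GFP replicate 1, or without AAV-Adipsin replicate 1, 9 of 39 members passed, where 0.242% and 0.330% of all genes did; the lone treatment-named library is then assumed to vary like the others.

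**Figure D1:**
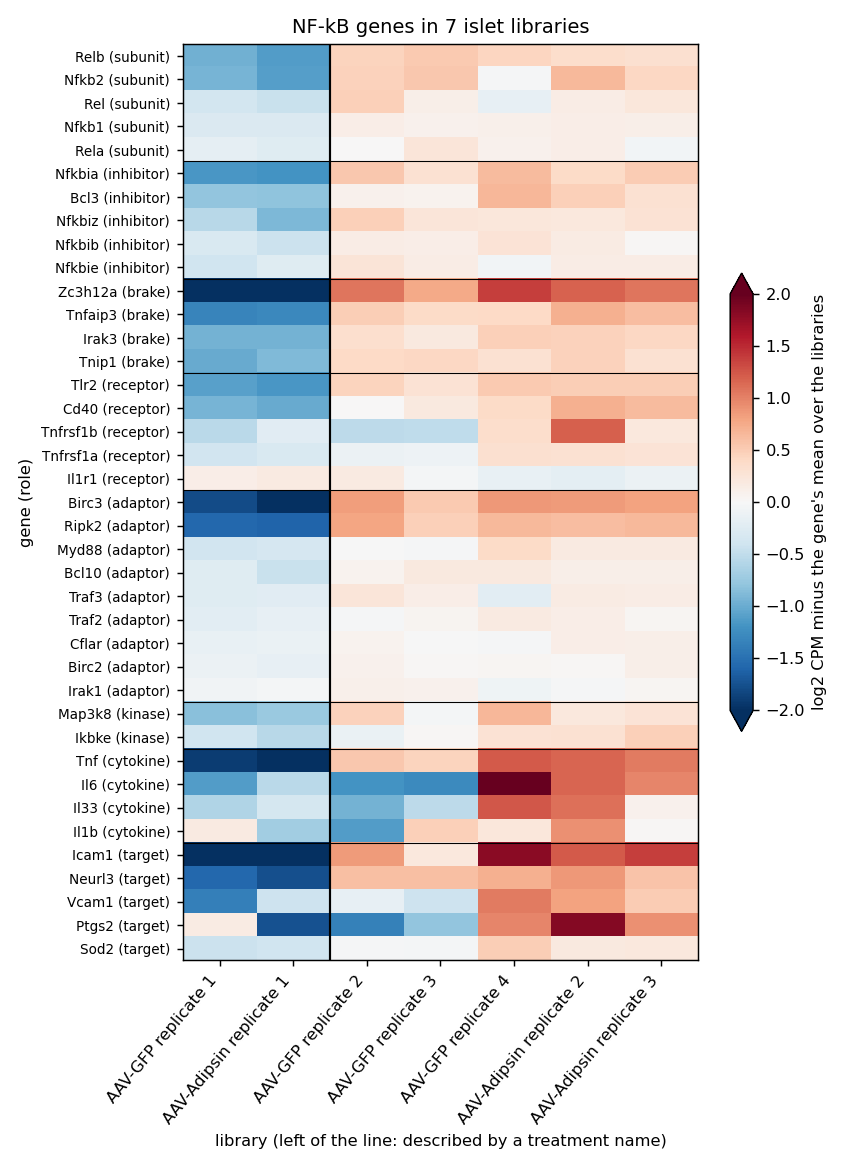
Difference of log2 CPM from the gene's mean over 7 libraries for each of the 39 members tested (rows, ordered by role) in each library (columns, the 2 treatment-named libraries first). Blue is below the mean and red above; the treatment-named columns are blue in most rows, and 32 members were lower in both of them than in any of the other 5.

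The sequence upstream of several members holds the DNA element that NF-kB dimers bind. Of the 40 members, 33 were matched by symbol in the RefSeq promoter table (build GRCm38.p6), whose windows run from 250 bases before to 50 bases after a transcription start. The 10-base kappaB consensus, searched on both strands with overlapping matches joined, was found for 14 of the 33 members (42.4%) and for 5.10% of the 27025 genes in the table. A looser element, GGNNNTTCC on either strand, which overlaps the consensus at many sites, was found for 18 of the 33 (54.5%) and for 20.7% of all genes in the table. A match describes the letters of the window; binding was not measured here. The 200 bases before the start of 6 members follow, each 5′ to 3′ on the gene's own strand. The first 5 carry the consensus in capitals and span low and high variation between libraries: Nfkbia (chr12:55492648-55492847, minus strand), the classical inhibitor; Tnip1 (chr11:54962941-54963140, minus strand), a partner of the deubiquitinating brake; Nfkbie (chr17:45555500-45555699, plus strand), an inhibitor that differed less; Traf3 (chr12:111166170-111166369, plus strand), an adaptor with a small difference; and Il6 (chr5:30012914-30013113, plus strand), the interleukin-6 gene. Icam1 (chr9:21015740-21015939, plus strand) is shown because it differed most by naming and had no consensus match in its window; its capitals mark GGNNNTTCC or the reverse complement.
Nfkbia: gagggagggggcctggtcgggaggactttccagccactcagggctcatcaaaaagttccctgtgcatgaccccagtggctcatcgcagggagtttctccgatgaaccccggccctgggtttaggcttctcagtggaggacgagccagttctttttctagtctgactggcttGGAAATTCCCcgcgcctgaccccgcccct
Tnip1: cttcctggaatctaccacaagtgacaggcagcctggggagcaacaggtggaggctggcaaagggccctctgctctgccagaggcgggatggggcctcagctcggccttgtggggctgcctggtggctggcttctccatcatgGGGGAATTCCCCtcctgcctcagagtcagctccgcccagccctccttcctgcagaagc
Nfkbie: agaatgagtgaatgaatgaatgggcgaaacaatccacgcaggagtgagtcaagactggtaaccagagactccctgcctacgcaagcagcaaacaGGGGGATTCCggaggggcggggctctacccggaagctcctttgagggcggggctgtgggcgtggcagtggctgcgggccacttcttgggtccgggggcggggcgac
Traf3: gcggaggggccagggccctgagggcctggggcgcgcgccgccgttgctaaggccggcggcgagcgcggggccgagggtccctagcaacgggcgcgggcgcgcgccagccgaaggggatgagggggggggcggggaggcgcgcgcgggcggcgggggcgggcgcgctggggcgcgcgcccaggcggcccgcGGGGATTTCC
Il6: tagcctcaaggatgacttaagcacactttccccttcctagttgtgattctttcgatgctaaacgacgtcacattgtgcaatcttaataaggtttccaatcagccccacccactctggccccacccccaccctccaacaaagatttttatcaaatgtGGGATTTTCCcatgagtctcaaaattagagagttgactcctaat
Icam1: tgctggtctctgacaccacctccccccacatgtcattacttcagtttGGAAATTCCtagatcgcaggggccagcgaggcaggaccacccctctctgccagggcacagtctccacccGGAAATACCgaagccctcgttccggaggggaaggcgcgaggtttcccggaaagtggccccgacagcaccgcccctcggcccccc

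In these stretches the element of Nfkbia, GGAAATTCCC, begins 29 bases before the start and that of Tnip1, GGGGAATTCCCC, 58 bases before it. The element of Il6, GGGATTTTCC, begins 44 bases before the start, that of Nfkbie, GGGGGATTCC, 106 bases, and that of Traf3, GGGGATTTCC, 10 bases. Icam1 had 2 of the looser elements, 153 and 84 bases before the start. Short elements of the consensus form also lay before the RefSeq starts of Tnfaip3 (GGGACACCCC and GGAAATCCCC), Tlr2 (GGGGAATTCCC), Rel (GGGAAATCCCC) and Neurl3 (GGAAAGTCCC). In the GENCODE M21 gene models these 200-base stretches held 63, 159, 1 and 158 annotated exon bases, in that order. Sod2 had a consensus element too, 83 bases before its start, and Nfkb2 had them 39 and 11 bases before a start. Their stretches held 22 and 200 exon bases. Members with a consensus match and members without one overlapped in how far they differed by naming. The 14 with a match had a median log2 difference of -1.24, from -2.34 (Neurl3) to 0.23 (Il1r1), and the 18 tested members without one a median of -0.59, from -3.97 (Icam1) to -0.08 (Irak1).

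**Figure D2:**
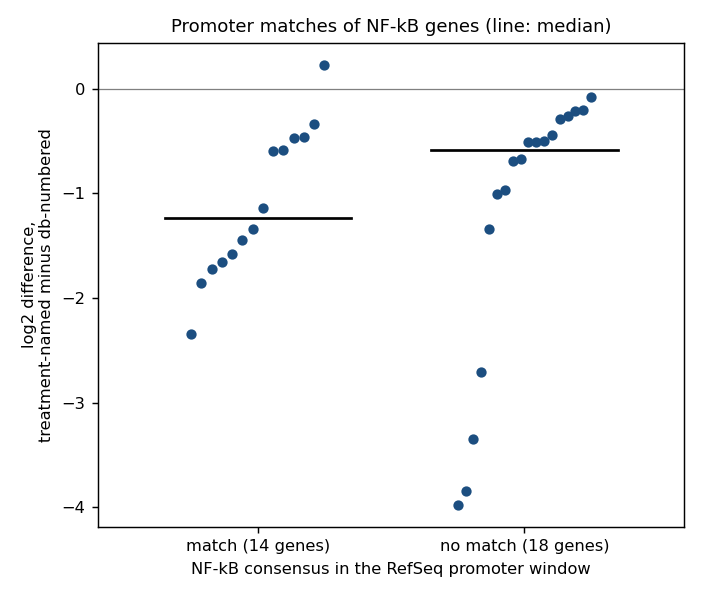
Log2 difference (vertical axis, treatment-named minus db-numbered) of the 14 members with a kappaB consensus match in the promoter window and the 18 tested members without one; lines are medians. The 2 sets overlap, with medians of -1.24 and -0.59, and the 4 lowest of these members have no match.

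Among the 5 subunits, Relb and Nfkb2, which partner each other in the non-canonical branch, varied most. Relb stood at 11.7, 31.3, 32.8 and 31.0 CPM in AAV-GFP replicates 1 to 4 and 10.6, 29.3 and 28.7 CPM in AAV-Adipsin replicates 1 to 3. Nfkb2 followed the same pattern, at 17.8, 46.5, 49.2 and 33.2 CPM in AAV-GFP and 15.7, 53.1 and 44.8 CPM in AAV-Adipsin. Both treatment-named libraries were low for both genes. Among the db-numbered libraries the 2 treatments overlapped for Nfkb2, whereas for Relb both AAV-Adipsin values lay just below the 3 of AAV-GFP. The share of all genes with such an order was not counted, so nothing is read from it. The log2 difference by naming was -1.44 (SE 0.07) for Relb and -1.44 (SE 0.18) for Nfkb2, and both passed. Some 6.5% of the exon bases of Nfkb2 lie opposite Psd, and whether the counting used strand is not stated.

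Nfkb1, the precursor of the main DNA-binding partner, stood at 71.9, 96.3, 93.2 and 94.7 CPM in AAV-GFP and 71.8, 96.7 and 95.7 CPM in AAV-Adipsin. Its 5 db-numbered values lay close together and above the other 2, with a log2 difference of -0.41 (SE 0.06) that passed. Rela, the main activating subunit, was at 50.3, 57.3, 66.9 and 60.4 CPM in AAV-GFP and 47.8, 62.5 and 54.5 CPM in AAV-Adipsin. The 2 lowest values were again those of the treatment-named libraries, but the difference, -0.29 (SE 0.09), did not pass. Rel, the subunit best known from lymphocytes, was at 7.81 and 7.34 CPM in the treatment-named libraries and 8.94 to 14.0 CPM in the others, a difference of -0.58 (SE 0.17) that did not pass either. By treatment the 5 subunits had log2 fold changes from -0.22 (Relb) to 0.05 (Nfkb2).

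The 5 members counted as inhibitors belong to the I-kappa-B family, whose proteins bind the dimers directly. Nfkbiz and Bcl3 among them act in the nucleus. By naming 4 of the 5 passed as lower. Over all genes tested 5.57% did, and this share stands beside each count by role given here. Nfkbia, whose resynthesis after activation restores the inhibited state, stood at 48.8, 159.7, 135 and 171 CPM in AAV-GFP replicates 1 to 4 and 47.9, 143 and 155 CPM in AAV-Adipsin replicates 1 to 3. The 2 treatment-named libraries were nearly equal, and every db-numbered library of either treatment was far above them. The means were 48.3 CPM over the 2 treatment-named libraries and 153 ± 14.2 CPM (SD, n = 5) over the others, 3.16 times as high, with a log2 difference of -1.65 (SE 0.11). It was similar under both treatments, at -1.66 in log2 CPM within AAV-GFP and -1.64 within AAV-Adipsin. By treatment Nfkbia differed by -0.16 (SE 0.53), and by -0.05 (SE 0.09) once naming was a term in the fit.

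Nfkbiz, an atypical nuclear member that helps to switch on secondary targets, had 64.2, 132, 112 and 111 CPM in AAV-GFP and 50.9, 109.6 and 115 CPM in AAV-Adipsin. The treatment-named libraries were the lowest of each group, with a log2 difference of -1.0 (SE 0.10). Nfkbib, a second cytoplasmic inhibitor, had 26.0, 35.6, 34.9 and 38.7 CPM in AAV-GFP and 23.6, 35.8 and 32.7 CPM in AAV-Adipsin. Its difference was smaller, -0.51 (SE 0.08), though the same 2 libraries were lowest; 14.5% of its exon bases lie opposite Ccer2, which had 35 counts in all libraries, and 1.9% opposite Sirt2, which had 21628 against 8075 for Nfkbib. Bcl3, a nuclear coactivator of the family, was at 35.2 and 34.9 CPM against 64.1 to 97.0 CPM, a difference of -1.14 (SE 0.18) that passed. Nfkbie was at 4.89 and 5.44 CPM against 6.21 to 7.70 CPM, and its difference of -0.46 (SE 0.13) did not pass. By treatment the 5 ran from -0.19 (Nfkbiz) to 0.02 (Nfkbie).

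All 4 genes of the second tier of brakes, which act on the signal or on target transcripts rather than on the dimers, passed as lower in the treatment-named libraries, with a median of -1.60. Zc3h12a, an RNase that degrades inflammatory messages such as that of interleukin-6, stood at 3.45, 47.2, 37.9 and 58.6 CPM in AAV-GFP replicates 1 to 4 and 3.27, 50.8 and 47.5 CPM in AAV-Adipsin replicates 1 to 3. The treatment-named libraries held 6.94% of the db-numbered mean, 48.4 ± 7.44 CPM (SD, n = 5), and no db-numbered library came near them. The log2 difference was -3.85 (SE 0.20). By treatment it was -0.12 (SE 1.08); with naming as a term it was 0.01 (SE 0.14).

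Tnfaip3, the deubiquitinating enzyme that shuts down signalling from tumour necrosis factor receptors, stood at 7.81, 27.7, 25.5 and 26.0 CPM in AAV-GFP and 7.96, 32.2 and 30.2 CPM in AAV-Adipsin. The treatment-named libraries were the lowest of each group and the db-numbered values ranged over 25.5 to 32.2 CPM. The log2 difference by naming was -1.86 (SE 0.09). Tnip1, its binding partner, was at 26.2 and 28.5 CPM against 65.1 to 73.1 CPM, a difference of -1.34 (SE 0.08). Irak3, a kinase-dead inhibitor of interleukin-1 and Toll-like receptor signalling, was at 4.78 and 4.82 CPM against 10.7 to 13.0 CPM, a difference of -1.34 (SE 0.12); 5.2% of its exon bases lie opposite Tmbim4, an abundant gene.

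**Figure D3:**
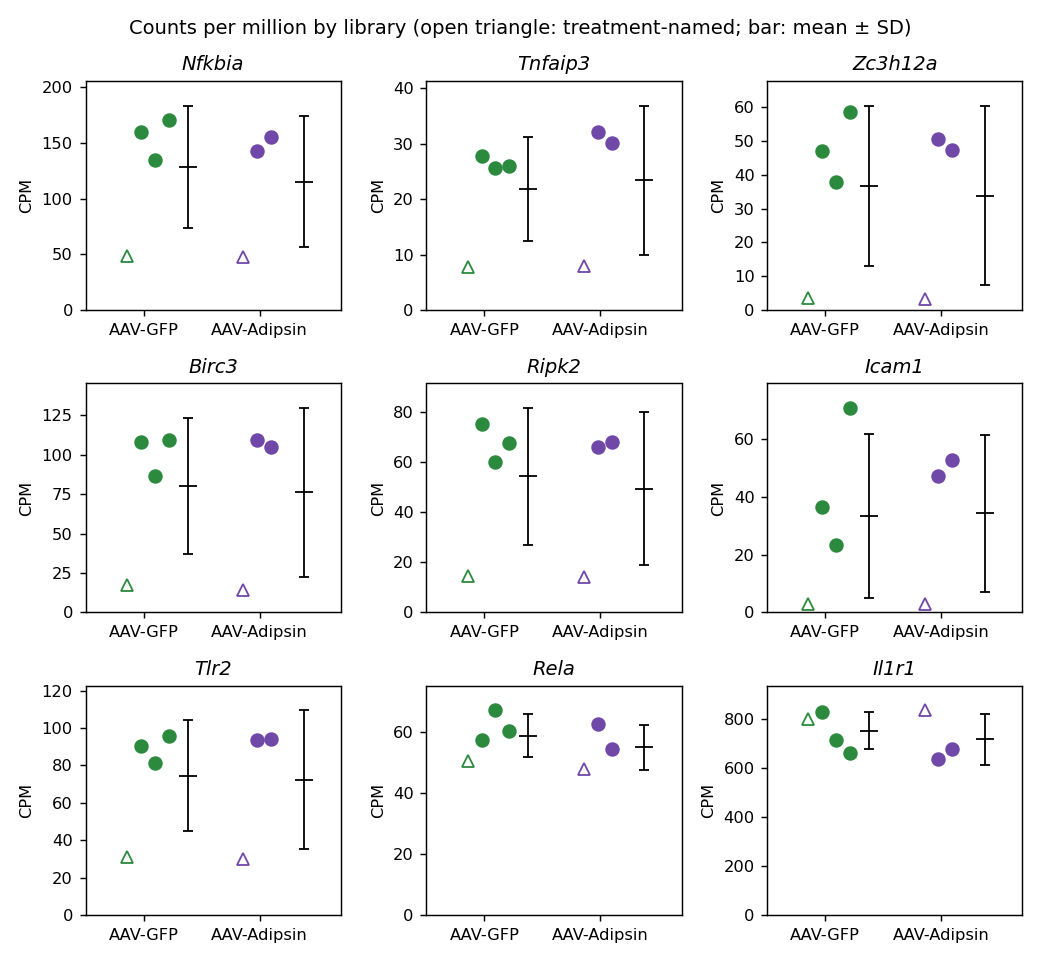
CPM of 9 members in each library by treatment group (open triangles, treatment-named libraries; filled circles, db-numbered libraries), with the mean ± SD of each treatment group (n = 4 and 3) as a bar at its right; every vertical axis starts at 0. Nfkbia, Tnfaip3, Zc3h12a, Birc3, Ripk2, Icam1 and Tlr2 have both triangles far below all circles, Rela has them only slightly lower, and Il1r1 has them among the highest values.

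Of the 5 receptors, Tlr2 and Cd40 passed as lower by naming and Il1r1 was the only one of the 39 members above 0. Tlr2, a sensor of bacterial lipoproteins, stood at 31.2, 90.2, 81.2 and 95.5 CPM in AAV-GFP replicates 1 to 4 and 29.7, 93.6 and 93.8 CPM in AAV-Adipsin replicates 1 to 3. Only the treatment-named libraries were low, and the difference was -1.58 (SE 0.09). Cd40, a receptor of the tumour necrosis factor family that feeds the non-canonical branch, stood at 4.67, 9.03, 10.3 and 11.7 CPM in AAV-GFP and 4.41, 14.7 and 13.8 CPM in AAV-Adipsin. Its treatment-named libraries were again the lowest, with a difference of -1.39 (SE 0.17). Among the db-numbered ones both AAV-Adipsin values were above the 3 of AAV-GFP, as they were for Tnfaip3, Cflar and Ikbke. How often db-numbered libraries part in this way was not counted over all genes, so nothing is read from it. Il1r1, the signalling receptor for interleukin-1, was the most abundant member per length at 116 RPKM (reads scaled by exon length and library total, mean of 7 libraries). It was at 802 and 835 CPM in the treatment-named libraries and 638 to 829.9 CPM in the others, a difference of 0.23 (SE 0.10) that did not pass.

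Tnfrsf1a, the widely expressed tumour necrosis factor receptor, was next among receptors at 69.5 RPKM and had 136, 163, 164 and 222 CPM in AAV-GFP and 143, 217 and 215 CPM in AAV-Adipsin. The 2 treatment-named libraries were lowest, with a difference of -0.50 (SE 0.13) that did not pass. Tnfrsf1b, the second receptor of that ligand and largely a gene of immune and endothelial cells, had 4.65, 4.71, 4.76 and 8.70 CPM in AAV-GFP and 5.81, 15.6 and 7.88 CPM in AAV-Adipsin. It had the smallest p of the members for treatment, and its highest value, in AAV-Adipsin replicate 2, was well above the rest. Its log2 fold change, 0.78 (SE 0.36), had an edgeR p of 0.0614 before adjustment and an adjusted p of 1.00. AAV-Adipsin replicate 2 also had the highest sum of 12 macrophage markers, 321 CPM against 136 to 197 CPM in AAV-GFP, and the part of these cells in the value was not tested. With naming as a term Tnfrsf1b was at 0.78 (SE 0.32), with an edgeR p of 0.0417 before adjustment and an adjusted p of 1.00.

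Of 9 adaptors tested 4 passed as lower by naming, 2 of them widely (Birc3 and Ripk2) and 2 by less (Bcl10 and Myd88). Birc3, a ubiquitin ligase of receptor complexes and a classical NF-kB target, stood at 17.4, 108, 86.6 and 109.7 CPM in AAV-GFP replicates 1 to 4 and 14.3, 109 and 105 CPM in AAV-Adipsin replicates 1 to 3. Every db-numbered library was far above both treatment-named ones, with a difference of -2.71 (SE 0.14). Ripk2, the kinase that relays signals from the bacterial sensors of the NOD family, stood at 14.5, 75.3, 60.3 and 67.6 CPM in AAV-GFP and 14.3, 66.3 and 68.0 CPM in AAV-Adipsin. The same 2 libraries were low, with a difference of -2.23 (SE 0.10). Birc2, the near copy and chromosomal neighbour of Birc3, was at 50.7 and 49.3 CPM against 56.3 to 59.9 CPM, a difference of -0.20 (SE 0.06) that did not pass; reads shared by the 2 copies could be assigned to either.

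Bcl10, which links antigen and lectin receptors to the kinase complex, had 29.0, 36.0, 39.2 and 39.1 CPM in AAV-GFP and 25.2, 37 and 37.3 CPM in AAV-Adipsin. Its difference, -0.47 (SE 0.07), was small but passed, with the treatment-named libraries lowest. Cflar, a caspase-8-like inhibitor of cell death, had 72.6, 84.9, 80.4 and 80.0 CPM in AAV-GFP and 73.7, 88.4 and 88.2 CPM in AAV-Adipsin. There too the 2 lowest values were treatment-named, but the difference of -0.21 (SE 0.06) did not pass. Myd88, the adaptor of interleukin-1 and Toll-like receptors, passed at -0.51 (SE 0.12), with 11.3% of its exon bases opposite Acaa1a. Irak1, Traf2 and Traf3, which carry the signal onward, had differences of -0.08 (SE 0.08), -0.26 (SE 0.08) and -0.34 (SE 0.12) and did not pass. Irak1 was the steadiest of the 39, at 265 to 302 CPM over all 7 libraries. By treatment the 9 tested adaptors ran from -0.13 (Ripk2) to 0.07 (Cflar).

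Both members counted under the role of kinase passed as lower by naming, while Ripk2 and Irak1 were counted as adaptors. Ikbke, an inducible relative of the inhibitor kinases, had 12.8, 15.4, 17.0 and 20.7 CPM in AAV-GFP and 11.4, 20.7 and 23.4 CPM in AAV-Adipsin. The treatment-named libraries were lowest, with a difference of -0.69 (SE 0.16). Map3k8, which links inflammatory receptors to the MAP kinases, was at 2.98 and 3.19 CPM against 5.25 to 8.56 CPM, a difference of -1.13 (SE 0.21).

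**Figure D4:**
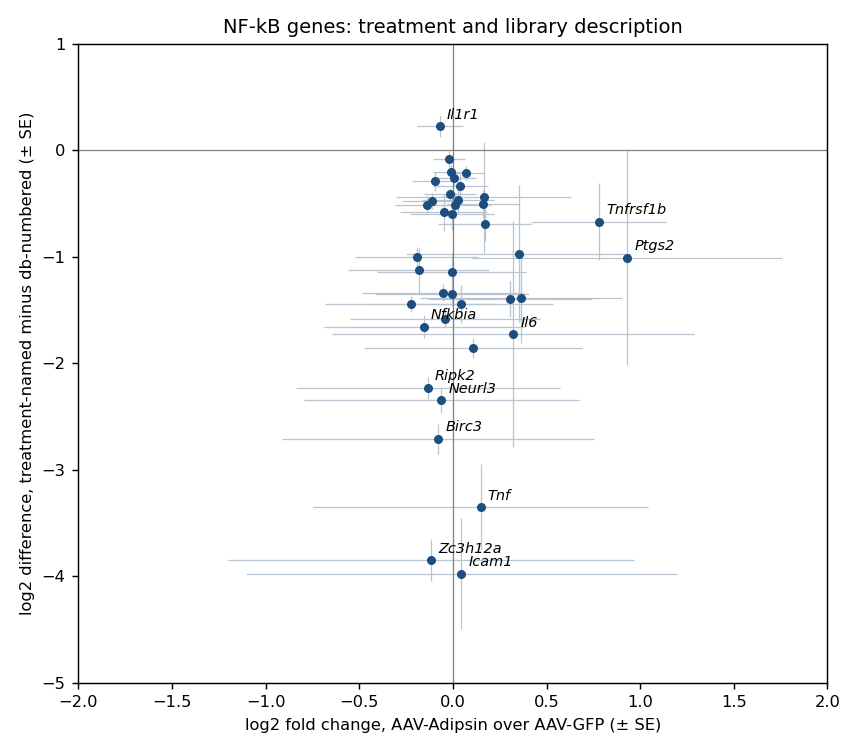
Log2 fold change by treatment (horizontal axis, AAV-Adipsin over AAV-GFP) against the log2 difference by naming (vertical axis, treatment-named minus db-numbered) for the 39 members tested, as points with bars of 1 SE. The members spread from 0.23 down to -3.97 on the vertical axis and from -0.22 to 0.93 on the horizontal one.

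Cytokine transcripts were scarce, and the 3 counts taken as the limit of a count of 0 amount to 0.0667 to 0.104 CPM. Tnf, the ligand of both tumour necrosis factor receptors, had 0.267, 1.69, 1.58 and 2.76 CPM in AAV-GFP replicates 1 to 4 and 0.156, 2.63 and 2.40 CPM in AAV-Adipsin replicates 1 to 3. It was lower in both treatment-named libraries, on 18 counts there against 372 in the others, a ratio of 10.2 with a 95% interval of 6.35 to 17.4 that covers counting error only. The fitted difference was -3.35 (SE 0.40), and it passed. Il6, a cytokine of the acute phase, had 2.00, 1.88, 1.79 and 17.7 CPM in AAV-GFP and 3.01, 9.93 and 8.76 CPM in AAV-Adipsin. Here AAV-GFP replicates 2 and 3 were as low as the treatment-named replicate 1, so the 2 kinds of library overlapped and the difference of -1.73 (SE 1.06) did not pass. By treatment Il6 differed by 0.32 (SE 0.97), and by 1.93 without AAV-GFP replicate 4, its highest library. The latter did not pass, with an edgeR p of 0.0022 before adjustment and an adjusted p of 0.954. In that fit 4 of 39 members had an edgeR p under 0.05 before adjustment, as had 570 of 16321 genes. AAV-GFP replicate 4, the highest, was also the highest library for 10 mesenchymal markers (357 CPM against 95.9 to 220.1 CPM elsewhere), fibroblast-type cells that make interleukin-6; the part of these cells was not tested.

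Il1b, the interleukin-1 ligand that macrophages make, had 1.42, 0.552, 1.77 and 1.48 CPM in AAV-GFP and 0.752, 2.41 and 1.28 CPM in AAV-Adipsin. The libraries overlapped by both treatment and naming, and the difference by naming was -0.44 (SE 0.52). Il33, an alarmin of stromal and endothelial cells, had 0.712, 0.552, 0.754 and 2.69 CPM in AAV-GFP and 0.856, 2.44 and 1.18 CPM in AAV-Adipsin. Its high values fell in AAV-GFP replicate 4 and AAV-Adipsin replicate 2, and neither split separated them. By treatment all 4 cytokines lay above 0, from 0.15 (Tnf) to 0.35 (Il33), with standard errors of 0.47 to 0.97 that exceed each value.

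Of the 5 other targets, Icam1, Neurl3 and Sod2 passed as lower by naming. Icam1, an adhesion molecule for leukocytes, had 2.89, 36.4, 23.4 and 70.7 CPM in AAV-GFP replicates 1 to 4 and 3.01, 47.0 and 52.8 CPM in AAV-Adipsin replicates 1 to 3. The treatment-named libraries held 6.40% of the db-numbered mean of 46.1 ± 17.8 CPM (SD, n = 5), and the db-numbered libraries differed among themselves, AAV-GFP replicate 4 being highest. The log2 difference was -3.97 (SE 0.52), the widest of the members, and 11.7% of the exon bases lie opposite Gm47079. Neurl3, a ubiquitin ligase, had 6.65, 30.1, 30.1 and 32.8 CPM in AAV-GFP and 5.86, 36.2 and 29.4 CPM in AAV-Adipsin. Its db-numbered values lay closer together than those of Icam1, and the difference was -2.34 (SE 0.12). Sod2, the mitochondrial superoxide dismutase, was at 98.6 and 100.2 CPM against 128 to 186 CPM, a difference of -0.59 (SE 0.15).

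Vcam1, an adhesion molecule of endothelial cells, had 2.42, 5.65, 4.76 and 13.0 CPM in AAV-GFP and 4.72, 11.1 and 9.03 CPM in AAV-Adipsin. The treatment-named libraries were the 2 lowest, AAV-Adipsin replicate 1 only just, and the difference of -1.38 (SE 0.43) did not pass. Its top library, AAV-GFP replicate 4, also had the highest sum of 9 endothelial markers, 640.4 CPM against 399 to 582 CPM elsewhere, and their part was not tested. Ptgs2, the inducible prostaglandin synthase, had 3.36, 1.14, 1.72 and 5.97 CPM in AAV-GFP and 0.856, 10.8 and 5.71 CPM in AAV-Adipsin. Within AAV-GFP the treatment-named value was above replicates 2 and 3, while within AAV-Adipsin it was the lowest by far. Its fold change by treatment, 0.93 (SE 0.83), was the highest of the members. It was -1.91 in log2 CPM between the 2 treatment-named libraries and 1.76 among the db-numbered ones. The first value compares 1 library with 1 library, so a change of direction with the naming cannot be read from it.

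By role, the median difference by naming was -0.58 for subunits, -1.0 for inhibitors, -1.60 for brakes, -0.67 for receptors, -0.34 for adaptors, -0.91 for kinases, -1.35 for cytokines and -1.38 for other targets. Most roles held both wide and narrow differences, as with Ripk2 (-2.23) and Irak1 (-0.08) among adaptors or Icam1 (-3.97) and Sod2 (-0.59) among targets. Differences between roles were not tested. As shares of all counts the members made up 0.214% and 0.212% in the 2 treatment-named libraries and 0.269% to 0.297% in the others.

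Fitting naming as a term beside treatment added no call. The standard error of the treatment effect went from 0.83 to 0.11 for Birc3 and from 0.53 to 0.09 for Nfkbia, with effects of -0.02 and -0.05. It was not smaller for every member: for Ptgs2 it went from 0.83 to 0.87, and for Il1b it was 0.47 in both fits. By edgeR 0 of 39 members passed, and the smallest p values before adjustment were 0.0417 for Tnfrsf1b and 0.0438 for Tnfaip3, whose effect was 0.18 (SE 0.08), with adjusted p values of 1.00. Among the 5 db-numbered libraries alone 0 of 39 passed by edgeR. There 3 of 39 members had an edgeR p under 0.05 before adjustment, as had 492 of 16237 genes. Cd40 had the smallest, differing by 0.48 (SE 0.14), with an edgeR p of 0.0133 before adjustment and an adjusted p of 1.00. In the same fit 30 of 39 members lay above 0, and the median over all genes tested was 0.0031. The side varied with the fit. With naming as a term 12 of 39 members lay below 0, and 12 also with the replicate number in the model (replicates 1 to 3 only). With treatment fitted alone and 1 library left out, members below 0 ranged from 3 of 39 (without AAV-Adipsin replicate 1) to 30 (without AAV-Adipsin replicate 2). Those fits hold no term for naming, and leaving out 1 library changes how naming is divided between the treatments. An interaction of treatment and naming was also fitted. Each treatment has only 1 treatment-named library, so this fit cannot decide whether the treatment effect itself differed by naming.

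The wider pathway was followed through 109 further genes, of which 100 were tested. By treatment 0 passed with edgeR, with a median log2 fold change of 0.04 and 60 above 0. By naming 27 passed as lower and 1 as higher, with a median of -0.30 and 82 below 0. Over all genes tested 5.57% passed as lower and 4.22% as higher, and 50.8% lay below 0. The 1 higher gene, Nod1, named after its values were seen, encodes a sensor of bacterial cell wall that signals through Ripk2 and differed by 0.79 (SE 0.08). Of 29 tested target genes 17 passed as lower, with a median of -1.97. Of 12 genes of the kinase complex 3 passed as lower, of 14 brakes 2, of 18 receptors 2, of 8 ligands 2 and of 19 adaptors 1. Without AAV-GFP replicate 1 the count of 28 was 5, and without AAV-Adipsin replicates 1, 2 and 3 it was 6, 14 and 15. Of all genes tested, 2.05% and 3% passed without AAV-Adipsin replicates 2 and 3. The list of 109 genes too was written with earlier results known, so nothing is read from its contrast with all genes.

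**Figure D5:**
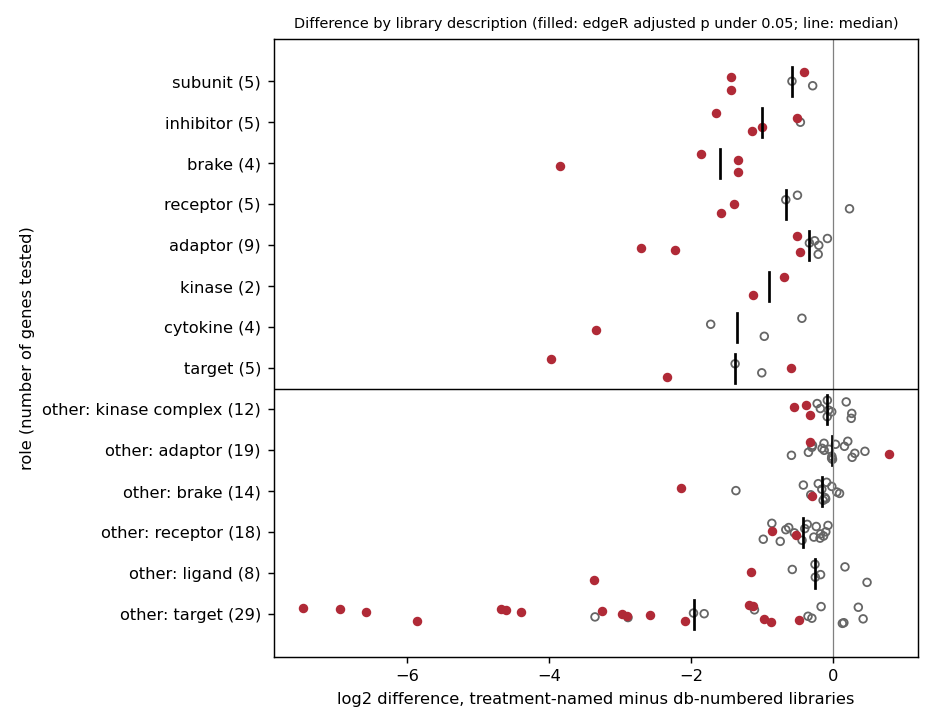
Log2 difference (horizontal axis, treatment-named minus db-numbered) of the members tested by role, above the line, and of the other pathway genes by role, below it; filled points passed by edgeR and bars are medians. Among the members the medians run from -0.34 for adaptors to -1.60 for brakes, and the other targets have a median of -1.97.

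Nos2, the inducible nitric oxide synthase that cytokines switch on in beta cells, had 0.222, 29.3, 21.4 and 30.6 CPM in AAV-GFP replicates 1 to 4 and 0.104, 34.9 and 34.1 CPM in AAV-Adipsin replicates 1 to 3. The treatment-named libraries held 14 counts between them and the others 5072, a ratio of 178 with a 95% interval of 106 to 326 that covers counting error only. Ccl20, a chemokine, had 3 counts against 641, a ratio of 105 (interval 35.8 to 511). Csf1, the macrophage growth factor, had 14.1, 99.9, 72.4 and 94.6 CPM in AAV-GFP and 15.8, 95.7 and 81.9 CPM in AAV-Adipsin. Its 2 treatment-named libraries were well below the rest, with a difference of -2.58 (SE 0.16). Cfb, complement factor B, differed by -4.61 (SE 0.36), Cxcl1, a neutrophil chemokine, by -4.39 (SE 0.38), and Gadd45b, a stress-response gene, by -1.19 (SE 0.09).

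Markers of other cells were set beside the difference by naming. Summed over 12 macrophage markers, the treatment-named libraries had 136 and 150 CPM and the others 141 to 321 CPM. The 9 endothelial markers summed to 417 and 478 CPM against 399 to 640.4 CPM, the 10 mesenchymal markers to 143 and 162 CPM against 95.9 to 357 CPM, and the 12 acinar markers to 3923 and 5212 CPM against 2703 to 17910 CPM. Each of these ranges overlapped, and no marker tested in these 4 lists passed by edgeR. Most of these markers nonetheless lay on the same side as the members. By naming, 12 of 12 acinar markers were below 0 (median -1.14), 10 of 11 macrophage markers (median -0.69), 9 of 10 mesenchymal markers (median -0.52) and 7 of 9 endothelial markers (median -0.23). The 8 duct markers, at 1561 and 1646 CPM against 1685 to 2558 CPM, did not overlap, and 7 of 8 were below 0 (median -0.73). Of 12 endocrine markers 4 passed as higher in the treatment-named libraries. Of 10 lymphocyte markers 2 (Cd3e and Nkg7) had no counts, and their sum was at most 1.68 CPM in any library; of 6 neutrophil markers 3 (Ly6g, Mpo and Elane) had none, and the sum was at most 1.17 CPM. The part of acinar, macrophage, mesenchymal, endothelial, duct and endocrine cells and of the mitochondrial share in the members' differences was not tested.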

How the data were processed

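Islet messenger RNA of 7 db/db mice was sequenced from stranded libraries. STAR and the build mm10 (GRCm38) are named in the submitters' processing notes. Neither the counting program nor its use of strand nor its gene models is given in the sources used here. The authors deposited 1 table of whole-number counts, not normalized. Symbols, coordinates and exon lengths came from GENCODE release M21 (GRCm38), which named 51719 of 51912 identifiers, and 22479 had no counts. Library totals of 29601707 to 43997400 put 3 counts, the limit a count of 0 allows, at 0.0667 to 0.104 CPM.

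In R 4.3.3, edgeR 4.0.16 was run with filterByExpr by group, trimmed-mean scaling and robust quasi-likelihood, and p values were adjusted by Benjamini-Hochberg over 16504 genes (threshold 0.05). Treatment was fitted alone, and the name in the library's description was fitted beside treatment. Log2 CPM carried a prior count of 2, and non-overlap of groups was read on it. Alternatives were other scaling and filters, DESeq2 1.42.0, limma-voom (limma 3.58.1), non-robust estimation, a threshold of 0.10, the description or the replicate number in the model, and each library left out. The code was tested on simulated counts.

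The members and all gene lists were chosen with earlier results of these data known. Values in every library are given for the 12 members with the smallest p by treatment, the 12 with the largest difference by description among those with a mean log2 CPM of at least 0, and 7 set genes (Nfkbia, Nfkb1, Rela, Tnfaip3, Tnf, Il1b, Il6). Of the other pathway genes the 6 with the smallest p are named. The labels call the mice separate replicates. No library was left out.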

Additional observations from a re-analysis of the deposited data

Results flagged for a closer look

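In 7 of 26 members checked, 1 AAV-GFP library lay far from the other 3, by a gap of most of the group's range (above Dixon's critical value for 4 libraries). Chance alone sets apart about 1 in 20 groups, and the members are not independent of each other. Those checked were picked for a small p by treatment or a large difference by naming, besides a few set genes. That choice favours members with a library apart, so their count is not read against the chance rate. In 4 of the 7 the library apart was the treatment-named AAV-GFP replicate 1, at the low end: Nfkb1 at 71.9 CPM, Relb at 11.7 CPM, Tnfaip3 at 7.81 CPM and Neurl3 at 6.65 CPM. The treatment-named AAV-Adipsin library was as low for each of these genes, at 71.8, 10.6, 7.96 and 5.86 CPM. In the other 3 it was AAV-GFP replicate 4, at the high end: Tnfrsf1b at 8.70 CPM, Il6 at 17.7 CPM and Il33 at 2.69 CPM. Both db-numbered AAV-Adipsin libraries were also above AAV-GFP replicates 1 to 3 for Tnfrsf1b (15.6 and 7.88 CPM), Il6 (9.93 and 8.76 CPM) and Il33 (2.44 and 1.18 CPM). AAV-Adipsin replicate 1 lay above those 3 libraries by less, at 5.81, 3.01 and 0.856 CPM for the same genes.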

How the results depend on the processing

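By treatment, 0 members and 0 other pathway genes passed under any setting run. Genes called among all tested were 1 with edgeR, 4 with DESeq2, 5 with DESeq2 and the description as a term, and 0 with limma-voom, with no filter on low counts or without both treatment-named libraries; leaving out single libraries gave 0 to 1. The members' median by treatment, -0.01, moved between -0.18 (without AAV-Adipsin replicate 2) and 0.29 (without AAV-Adipsin replicate 1). The cause of these shifts was not tested.

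By description, 22 to 31 members passed under the other tools, scalings, filters and thresholds, and 9 to 32 with single libraries left out. The lowest count came when AAV-GFP replicate 1, or instead AAV-Adipsin replicate 1, was left out, and all 9 were among the 23 each time; the highest came without AAV-GFP replicate 4. All genes called numbered 1616 with edgeR, 2528 with DESeq2, 2975 at a threshold of 0.10, and 39 (without AAV-GFP replicate 1) to 4348 (without AAV-GFP replicate 4) with single libraries left out. The other pathway genes called, 28, ranged from 5 (without AAV-GFP replicate 1) to 39 (without AAV-GFP replicate 4), with 6, 14 and 15 without AAV-Adipsin replicates 1, 2 and 3. The members' median, -1.0, ranged from -1.12 (without AAV-GFP replicate 3) to -0.66 (without AAV-GFP replicate 4). No called value changed sign.

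The replicate numbers did not pair the libraries: deviations from the group means correlated at 0.661, -0.011 and 0.007 for numbers 1, 2 and 3. With the replicate block 0 members and 1 gene passed, and the members' median was 0.07. In this fit, of replicates 1 to 3 only, 11 of 39 members had an edgeR p under 0.05 before adjustment, as had 1080 of 16321 genes. The smallest adjusted p of a member was 0.2315 (Vcam1). The difference by description rests on 2 treatment-named libraries, 1 per treatment, against 3 db-numbered libraries in AAV-GFP and 2 in AAV-Adipsin. Cytokine transcripts are limited by depth, with Il1b, Il33 and Tnf at few counts per library.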
